A study of Mus musculus with 19 samples.

Results

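The genes described here are the pore-forming and auxiliary subunits of potassium channels in the mouse cochlea. Members were chosen by name, as every measured gene whose symbol has the Kcn stem followed by a family letter and a number, without Kcne1, Kcnq1, Kcnj10, Kcnj13 and Kcnj8. This gave 82 of the 18639 genes in the deposited table, in 12 subfamilies. All 82 reached a value of 1 in 2 or more of the 14 fitted libraries and were tested.

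Potassium channels let potassium ions cross the membrane and so set its resting voltage and end action potentials. Voltage-gated Kv channels open on depolarisation, inward rectifiers (Kir) and tandem pore domain channels (K2P) hold the resting voltage, and calcium-activated channels couple calcium to potassium flow. Auxiliary subunits change where and how fast the pores work. In the cochlea these channels carry the current of hair cells, shape the firing of spiral ganglion neurons, which form the auditory nerve, and recycle potassium into the endolymph. In macrophages and microglia a small set, among them Kv1.3, THIK-1 and TWIK-2, is known for controlling membrane voltage and potassium efflux.

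RNA was sequenced from cells of the mouse cochlea sorted by green fluorescent protein (GFP). Every mouse was a CX3CR1 GFP/+ heterozygote, in which GFP replaces 1 copy of the chemokine receptor gene Cx3cr1. All groups therefore share the loss of that copy. GFP-positive cells were taken as macrophages and GFP-negative cells, a mixture of the other cell types, as nonmacrophages. Old mice were 12 to 14 months and young mice 1.5 months of age. From whole cochleae there were 4 libraries of old macrophages, 2 of young macrophages, 4 of old nonmacrophages and 4 of young nonmacrophages. Young mice also gave 1 macrophage and 1 nonmacrophage library each from the auditory nerve and from the lateral wall, the side of the cochlear duct that secretes endolymph, and 1 unsorted whole cochlea library. Each isolate came from 1 mouse.

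Reads in genes numbered 50.6 to 71.6 M in the old libraries. In the young sorted whole cochlea they numbered 24.9 to 35.1 M, except nonmacrophage replicate 14 with 60.2 M. The 5 other young libraries held 20.6 to 26.4 M. Values are normalized reads, the authors' read counts divided by a library factor. Members with any read numbered 67 to 75 in old macrophage libraries, 38 and 43 in young macrophage replicates 9 and 15, 75 to 78 in old nonmacrophages and 47 to 67 in young nonmacrophages. With every library thinned to 20 M reads, old macrophage libraries had reads for 67 to 73 members and young ones for 37 and 42. Before thinning, 89.9% to 92.7% of all genes had reads in old macrophage libraries and 62.5% and 72.6% in young macrophage replicates 9 and 15. After thinning, 16491 to 16838 genes had reads in old macrophage libraries and 11516 and 13320 in the young ones. The lower detection in young macrophages was thus not confined to the members. The 10 macrophage markers were detected in every macrophage library, with summed levels of 183727 to 309106 normalized reads in old macrophages, 818212 and 978637 in young macrophages, 1073 to 2543 in old nonmacrophages and 534 to 3528 in young nonmacrophages. Cx3cr1 itself averaged 8733 in old macrophages, 15865 in young macrophages, 56.2 in old nonmacrophages and 2.60 in young nonmacrophages. The summed level of the 12 spiral ganglion neuron markers was 276798 to 344408 in old macrophages, 269924 and 153114 in young macrophages, 10039 to 16396 in old nonmacrophages and 6520 to 33815 in young nonmacrophages. In the auditory nerve it was 36036 in the macrophage and 30256 in the nonmacrophage library. In the lateral wall macrophage library it was 50.5, with Gap43, Nefl, Nefm, Prph, Slc17a7 and Tubb3 at 0, and in the unsorted library 233556. On the deposited scale the median gene differed by -0.61 (log2) between young macrophages and nonmacrophages, by 0.88 between old and young macrophages and by 0.39 between old and young nonmacrophages. After quantile normalization these medians were 0.08, -0.07 and -0.03, so the medians of all genes are printed beside those of the members.

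The family ranged from genes among the most abundant channels of the tissue to genes at the edge of detection. Of the 82 members, 15 had reads in all 19 libraries, and 19 reached a mean of 20 normalized reads in none of the 4 whole-cochlea groups. Levels are compared between genes per kilobase of exon. In old macrophages the highest were Kcnk1, which encodes the K2P channel TWIK-1, at 5015 ± 1064 normalized reads per kilobase (SD, n = 4), and Kcna1 (Kv1.1), the low-threshold channel of the axon next to the node of Ranvier, at 1652 ± 329. Next stood the β subunit genes Kcnab2 at 1544 ± 435 and Kcnab3 at 1258 ± 417 and the modifier subunit gene Kcns1 at 842 ± 185 per kilobase, with spreads that overlap between Kcna1, Kcnab2 and Kcnab3. In young macrophages Kcnk1 at 3411 ± 178 and Kcna1 at 779 ± 408 per kilobase (SD, n = 2) also led. In old nonmacrophages the order was Kcna1 at 2853 ± 1162, Kcnk1 at 1821 ± 317 and Kcnj16 at 1318 ± 258 per kilobase (SD, n = 4). Kcnj16 encodes Kir5.1, a partner of the glial and strial channel Kir4.1. In young nonmacrophages Kcna1 at 3915 ± 2044 and Kcnk1 at 2421 ± 627 per kilobase led, followed by Kcnk2 (TREK-1), a mechanosensitive K2P channel, at 602 ± 136 (SD, n = 4).

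**Figure D1:**
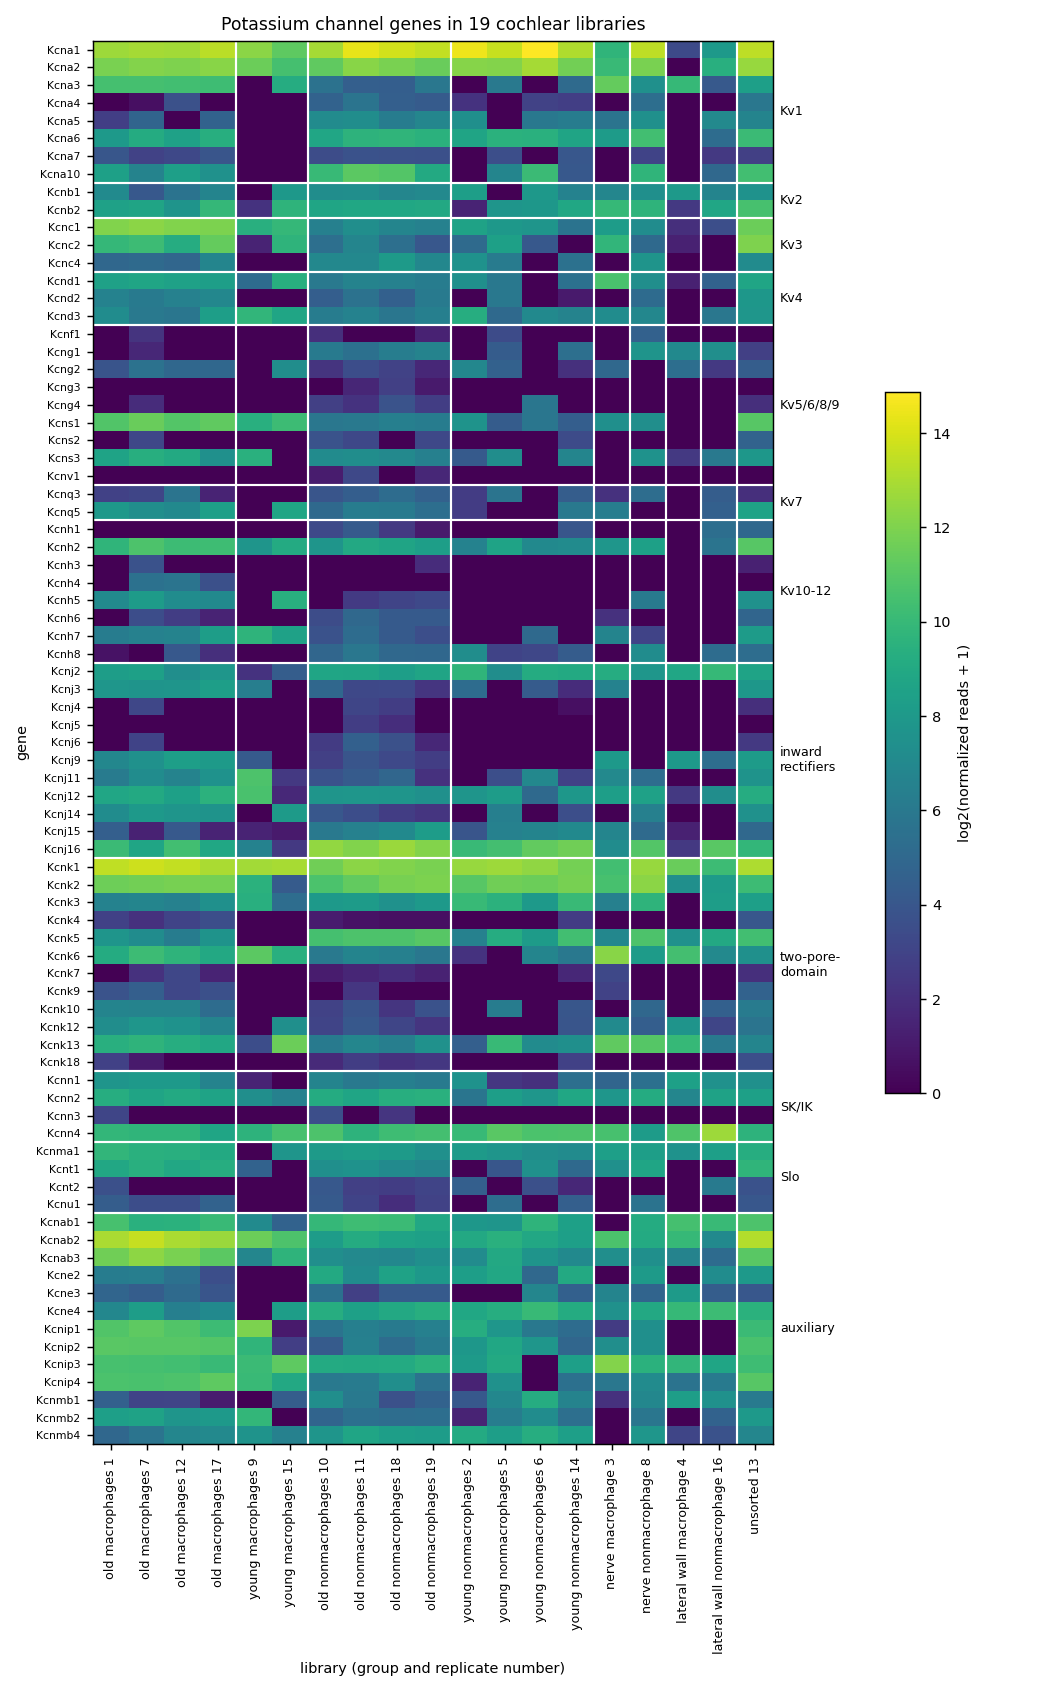
Level of 79 potassium channel genes (rows, grouped by subfamily) in the 19 libraries (columns, by group and replicate number), as the log2 of normalized reads plus 1. Kcna1 and Kcnk1 are bright in nearly every whole-cochlea library, Kcnc1 and Kcnc2 are brighter in old macrophages than in nonmacrophages, and many genes have no reads (darkest cells) in young macrophages and in the lateral wall macrophage library.

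The first comparison asked which channel genes differed between GFP-positive and GFP-negative cells of the old cochlea. Of the 82 members 16 were higher and 10 lower in old macrophages by limma with Benjamini-Hochberg adjustment at 0.05 over 18441 genes, against 9.25% of all genes higher and 9.36% lower. The median log2 difference was 0.38 for the members and -0.19 for all genes. The 4 macrophage and 4 nonmacrophage libraries did not overlap for 35 members that were higher and 15 that were lower, against 23.3% and 30% of all genes. Both directions occurred within subfamilies, with 3 higher and 3 lower among the 8 Kv10 to Kv12 genes and 2 higher and 3 lower among the 11 inward rectifiers.

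Kcnc1 encodes Kv3.1, a fast-closing channel that lets auditory neurons fire at high rates (mm10, chromosome 7, 46396497 to 46438704). It had 4213, 5035, 4231 and 3938 normalized reads in old macrophages, against 88.6, 162, 109 and 91.6 in old nonmacrophages. The log2 difference was 5.30 (SE 0.53, limma adjusted p = 2.9e-05). Every macrophage library lay far above every nonmacrophage library. Kcnc2 (Kv3.2), a channel of the same subfamily, had 962, 1194, 597 and 2683 in old macrophages, against 42.4, 110.1, 42.3 and 15.4 in old nonmacrophages, but did not pass the test (log2 difference 4.76, SE 1.77, limma adjusted p = 0.081).

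Kcns1 encodes Kv9.1, a subunit that forms no channel alone and modifies Kv2 channels (chromosome 2, 164163619 to 164171113). It had 1840.4, 2903, 1915 and 2474 normalized reads in old macrophages, against 59, 62.6, 83.4 and 75.2 in old nonmacrophages, a log2 difference of 4.99 (SE 0.66, limma adjusted p = 0.0002). Among the cytoplasmic subunits, Kcnab2 (Kvβ2, which brings Kv1 channels to the axon; chromosome 4, 152390742 to 152477871) had 7999, 12064, 7996 and 6386 in old macrophages, against 301, 573, 395 and 357 in old nonmacrophages. Its log2 difference of 4.40 (SE 0.31) had the smallest adjusted p of the family, 3.3e-06 by limma. Kcnab3 (Kvβ3) averaged 3604 ± 1195 in old macrophages, against 144 ± 23.2 in old nonmacrophages (SD, n = 4 each). Kcnip2 (KChIP2, a calcium-binding partner of Kv4 channels) averaged 2035 ± 85.7 in old macrophages, against 52.9 ± 30.6 in old nonmacrophages. No library of either sort overlapped with the other for these 4 subunit genes.

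Other kinds of channel gene also rose. Kcnj9 (GIRK3), a subunit of the inward rectifiers that G-protein-coupled receptors open, had 118, 183, 324 and 277 normalized reads in old macrophages, against 6.15, 14.5, 8.9 and 5.49 in old nonmacrophages, a log2 difference of 4.52 (SE 0.80). Kcnk1 averaged 11209 ± 2379 in old macrophages, against 4069 ± 709 in old nonmacrophages (SD, n = 4 each), a smaller log2 difference of 1.45 (SE 0.23). Kcnip4, Kcnj3 (GIRK1), Kcnh2 (ERG1), Kcnh5, Kcnk4, Kcnk9 and Kcnk12 (THIK-2) also passed, with log2 differences of 1.78 to 5.18, and so did Kcnh4, which had no reads in old nonmacrophages and was at least 15.2-fold higher, with overlapping libraries. For these 8 the call was lost in at least 1 other setting or left-out library, for Kcnk9 under edgeR and DESeq2. Kcnk4 shares 572 exon bases with Catsperz on the same strand and Kcnip4 overlaps a gene on the opposite strand, so their counts are uncertain.

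Among the genes that fell, Kcnk5 encodes TASK-2, an acid-sensitive K2P channel of epithelia and of cochlear supporting cells (chromosome 14, 20140057 to 20181809). It had 218, 149.6, 74.6 and 195 normalized reads in old macrophages, against 1466, 1708, 1677 and 2035 in old nonmacrophages, and the log2 difference was -3.52 (SE 0.71, limma adjusted p = 0.0039). The inward rectifier Kcnj15 (Kir4.2) had 21.8, 1.63, 16.6 and 1.83 in old macrophages, against 64, 93.6, 135 and 297 in old nonmacrophages (log2 difference -4.09, SE 0.94). Kcng1 (Kv6.1), another Kv2 modifier, had 0, 2.18, 0 and 0 in old macrophages, against 65.2, 44, 78.4 and 98.8 in old nonmacrophages (log2 difference -5.71, SE 1.10). Kcnj16 averaged 834 ± 449.9 in old macrophages, against 5187 ± 1017 in old nonmacrophages (SD, n = 4 each), a log2 difference of -2.79 (SE 0.71). Kcna4, Kcnmb4, Kcnh1, Kcnh6, Kcnh8 and Kcnj6 also fell, all of them except Kcnmb4 at low levels, with old nonmacrophage means of 7.84 to 37.6 normalized reads. Kcnh1 had no reads in old macrophages and was at least 4.63-fold lower, and the libraries of Kcnh6 and Kcnj6 overlapped. Kcnj16 lost its call without old macrophage replicate 7 (limma adjusted p = 0.051). Kcnmb4 (the neuronal BK subunit β4) overlaps the exons of 2 opposite-strand genes, and whether counting used strand is not given in the sources used here.

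Beside these members, 9 of the 12 spiral ganglion neuron markers were higher and 8 of the 10 Schwann cell and oligodendrocyte markers lower in old macrophages. In bulk samples, fewer cells of a type and less RNA per cell cannot be told apart, and the part of the neuron and glial markers in these differences was not tested. Of the 26 calls, 11 were kept in every left-out library and every other setting, among them Kcnab2, Kcnab3, Kcnc1, Kcnip2, Kcnj9, Kcnk1 and Kcns1, which were higher, and Kcng1, Kcnj15 and Kcnk5, which were lower. The count of higher members was 10 without macrophage replicate 7, 9 without replicate 12 and 10 without replicate 17. That of lower members was 6 without macrophage replicate 1, 7 or 17 and 5 without nonmacrophage replicate 11. In these fits 12.9% to 14.5% of all genes were called in either direction. Fitted on the 8 old libraries alone, 37 members were higher and 22 lower, where 58.3% of all genes passed in either direction, and with quantile normalization 28 were higher and 9 lower, where 25.9% of all genes were called.

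**Figure D2:**
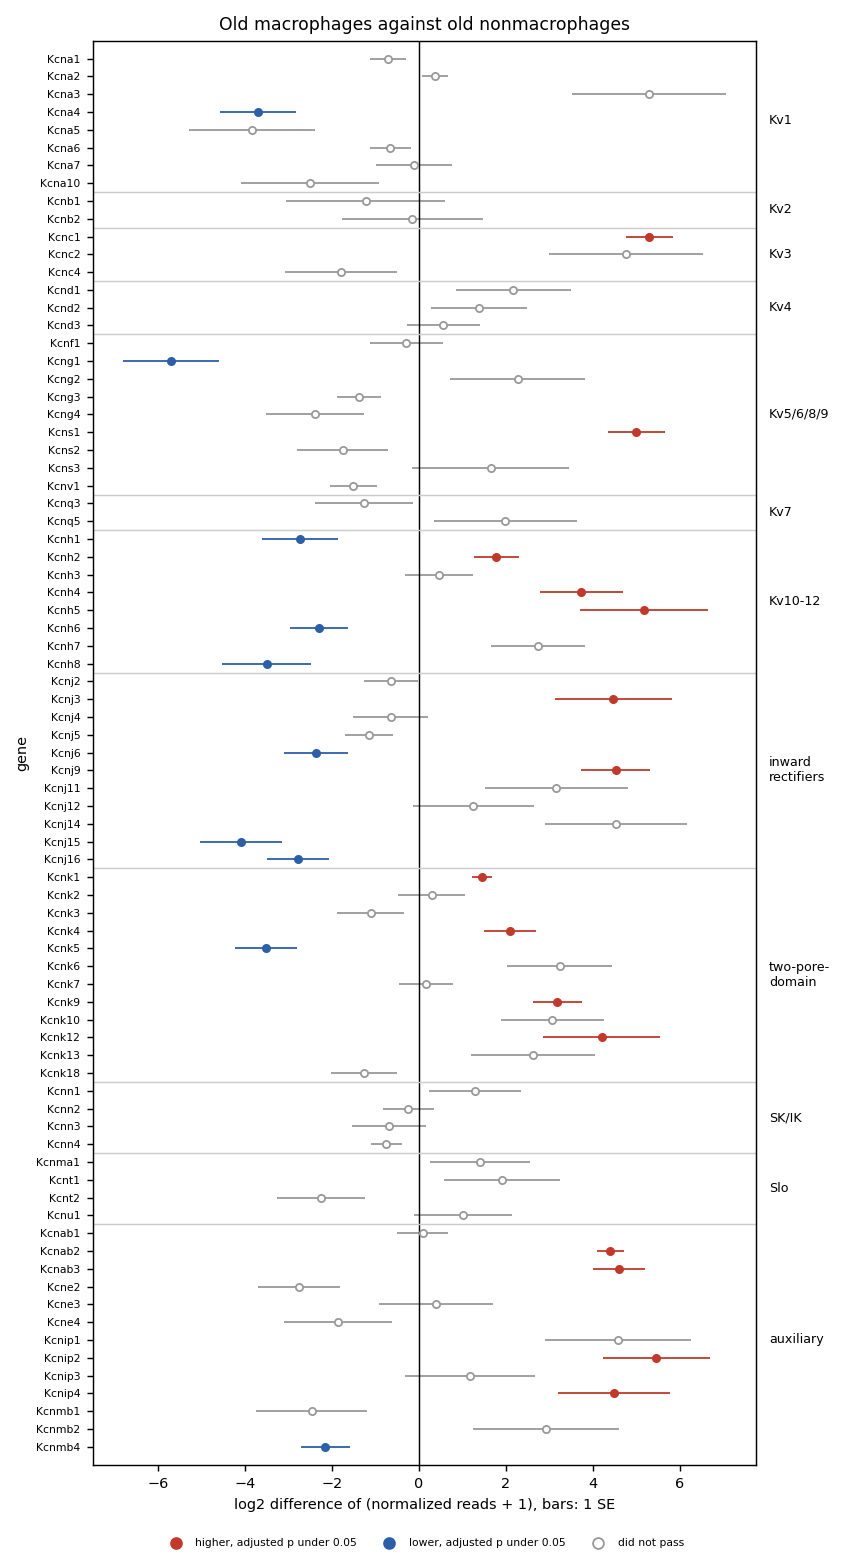
Log2 difference of normalized reads plus 1 between old macrophages and old nonmacrophages for 79 genes, with bars of 1 SE from limma and 4 libraries a group. Filled red points (15) and blue points (10) passed the adjusted p of 0.05. Kcnc1, Kcns1, Kcnab2, Kcnab3 and Kcnip2 stand to the right with log2 differences of 4.40 to 5.46, and Kcng1 to the far left at -5.71.

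The sequences just upstream of the start of 4 members are shown because these genes stand for the patterns of the report: Kcnc1 and Kcns1 were higher in whole-cochlea macrophages and near 0 in the lateral wall macrophage library, Kcna3 was high in old macrophages and in the lateral wall macrophage library, and Kcnk5 was lower in macrophages of both ages. They were chosen after their values were seen. Each runs 5′ to 3′ over the 250 bases before the gene's start (RefSeq, GRCm38), on the plus strand at chr7:46396218-46396467 for Kcnc1 and chr3:107035912-107036161 for Kcna3 and on the minus strand at chr2:164171114-164171363 for Kcns1 and chr14:20181783-20182032 for Kcnk5. Capitals mark GC boxes, searched as GGGCGG and its reverse complement CCGCCC.
Kcnc1: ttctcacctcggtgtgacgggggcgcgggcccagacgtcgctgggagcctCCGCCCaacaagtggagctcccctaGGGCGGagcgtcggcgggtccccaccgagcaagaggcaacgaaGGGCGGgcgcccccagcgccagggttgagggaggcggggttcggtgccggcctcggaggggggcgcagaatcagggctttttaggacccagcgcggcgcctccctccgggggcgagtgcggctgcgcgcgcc
Kcns1: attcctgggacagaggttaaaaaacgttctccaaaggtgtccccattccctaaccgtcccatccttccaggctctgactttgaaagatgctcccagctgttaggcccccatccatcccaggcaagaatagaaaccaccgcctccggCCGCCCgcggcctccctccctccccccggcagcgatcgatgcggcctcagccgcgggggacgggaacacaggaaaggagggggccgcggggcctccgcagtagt
Kcna3: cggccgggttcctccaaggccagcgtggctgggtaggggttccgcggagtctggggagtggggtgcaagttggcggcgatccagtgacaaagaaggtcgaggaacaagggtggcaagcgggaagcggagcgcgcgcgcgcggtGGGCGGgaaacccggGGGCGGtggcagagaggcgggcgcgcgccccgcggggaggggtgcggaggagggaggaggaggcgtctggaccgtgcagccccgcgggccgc
Kcnk5: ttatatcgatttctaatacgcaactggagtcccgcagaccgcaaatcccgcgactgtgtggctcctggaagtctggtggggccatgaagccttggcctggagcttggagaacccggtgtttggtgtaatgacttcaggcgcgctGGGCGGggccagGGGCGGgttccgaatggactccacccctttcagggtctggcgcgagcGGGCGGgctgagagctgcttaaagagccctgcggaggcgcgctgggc
The Kcnc1 and Kcnk5 windows held 3 GC boxes, that of Kcna3 2 and that of Kcns1 1. Promoter entries matched 60 of the 82 members, with 85 windows of the 32851 of all genes. GC boxes were found in 45.9% of the members' windows and in 32.7% of all windows, and the median GC content was 58.8% and 52.4%. The motif GAGGAA, or TTCCTC on the other strand, which holds the core that PU.1 binds, was found in 25.9% of the members' windows and 23.3% of all windows. A TATA box (TATAAA or TTTATA) was found in 2.4% and 12.4%. These are matches of letters in a window of fixed length and say nothing about binding.

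The second comparison set the same sorts against each other in the young cochlea. By limma 7 members were higher and 15 lower in young macrophages, against 9.18% and 22.3% of all genes. The medians were -0.56 for members and -0.61 for all genes. The members' median was -0.36 over 74 members with those at 0 in a group set to their bound against 3 reads. The sorts did not overlap for 9 members that were higher and 14 that were lower, against 10.5% and 18.6% of all genes. With quantile normalization 15 members were higher and 8 lower, where 28% of all genes were called.

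Kcnab2 had 2958 and 1675 normalized reads in the young macrophage libraries, against 512, 691, 491 and 336 in young nonmacrophages (log2 difference 2.18, SE 0.38, limma adjusted p = 0.00076). Kcns1 had 678 and 1156 in young macrophages, against 197, 19.1, 55.5 and 20.9 in young nonmacrophages (log2 difference 4.23, SE 0.80). Kcnk6 encodes TWIK-2, the K2P channel through which mouse macrophages release potassium during inflammasome activation (chromosome 7, 29221926 to 29232515). It had 2249 and 655 in young macrophages, against 3.56, 0, 106 and 61 in young nonmacrophages, a log2 difference of 6.53 (SE 1.47, limma adjusted p = 0.0047). Kcnc1, Kcnip4 and Kcnh7 (ERG3) were also higher, with log2 differences of 2.18 to 7.83. Both macrophage libraries lay above all 4 nonmacrophage libraries for each of these genes. Kcnh7 shares exon sequence with the opposite-strand gene Gca.

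The widest gaps downward were at genes without any read in the young macrophages. Kcna6 (Kv1.6), a subunit of axonal Kv1 channels, had 0 and 0 normalized reads in young macrophages, against 414, 738, 703 and 418 in young nonmacrophages. Set against 3 reads per library it was at least 131-fold lower. Kcnk5 had 0 and 0 in young macrophages, against 92.5, 602, 290.4 and 1316 in young nonmacrophages, and was at least 133-fold lower. Kcnj16 had 94.8 and 4.52 in young macrophages, against 1106, 1406, 2511 and 3269 in young nonmacrophages (log2 difference -6.36, SE 0.87). Kcnj2 (Kir2.1), a strong inward rectifier of many cell types, had 3.51 and 20.3 in young macrophages, against 857, 157, 574 and 527 in young nonmacrophages (log2 difference -5.52, SE 0.77). Kcne2, Kcnc4 and Kcnh8 had no reads in young macrophages and were at least 79.1-fold, 17.9-fold and 10.8-fold lower than the young nonmacrophage mean. For Kcnh8 that mean rested largely on replicate 2, with 153, 6.81, 8.16 and 18.7 normalized reads in young nonmacrophages. Kcnc4 had no reads in young nonmacrophage replicate 6, so its libraries overlapped. Kcna1, Kcna2, Kcnab1, Kcne4, Kcnj15, Kcnk2, Kcnmb1 and Kcnn1 also fell, with log2 differences of -1.20 to -5.19. The libraries of Kcnmb1 overlapped, with 20.3 in young macrophage replicate 15 and 16.0 in young nonmacrophage replicate 2.

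Across the ages 5 members rose with the sort in both (among them Kcnab2, Kcnc1, Kcnip4 and Kcns1), 4 fell in both (Kcnh8, Kcnj15, Kcnj16 and Kcnk5) and 0 were called in opposite directions. These counts were not made over all genes, so they do not show whether the family stands apart. In young macrophages 8 of the 12 neuron markers were higher and Gap43 lower, and all 10 Schwann cell and oligodendrocyte markers were lower. The 2 young macrophage libraries differed widely from each other: Kcnip1 had 3997 normalized reads in replicate 9 and 1.13 in replicate 15, and Kcnj11 (Kir6.2) 1683 in replicate 9 and 4.52 in replicate 15. Kcnk13 (THIK-1) had 10.5 in replicate 9 and 3019.9 in replicate 15, and Kcna3 0 in replicate 9 and 594 in replicate 15. The calls of Kcna6 and Kcnk5 were kept in every left-out library and setting. Library quality weights gave each young macrophage library a weight of 0.0666. With these weights 0 members were higher and only Kcna6 and Kcnk5 lower, where 3.12% of all genes were called. Without young macrophage replicate 9 the count of higher members was 14, where 27.3% of all genes were called in either direction, and without replicate 15 it was 11, where 43.3% were.

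**Figure D3:**
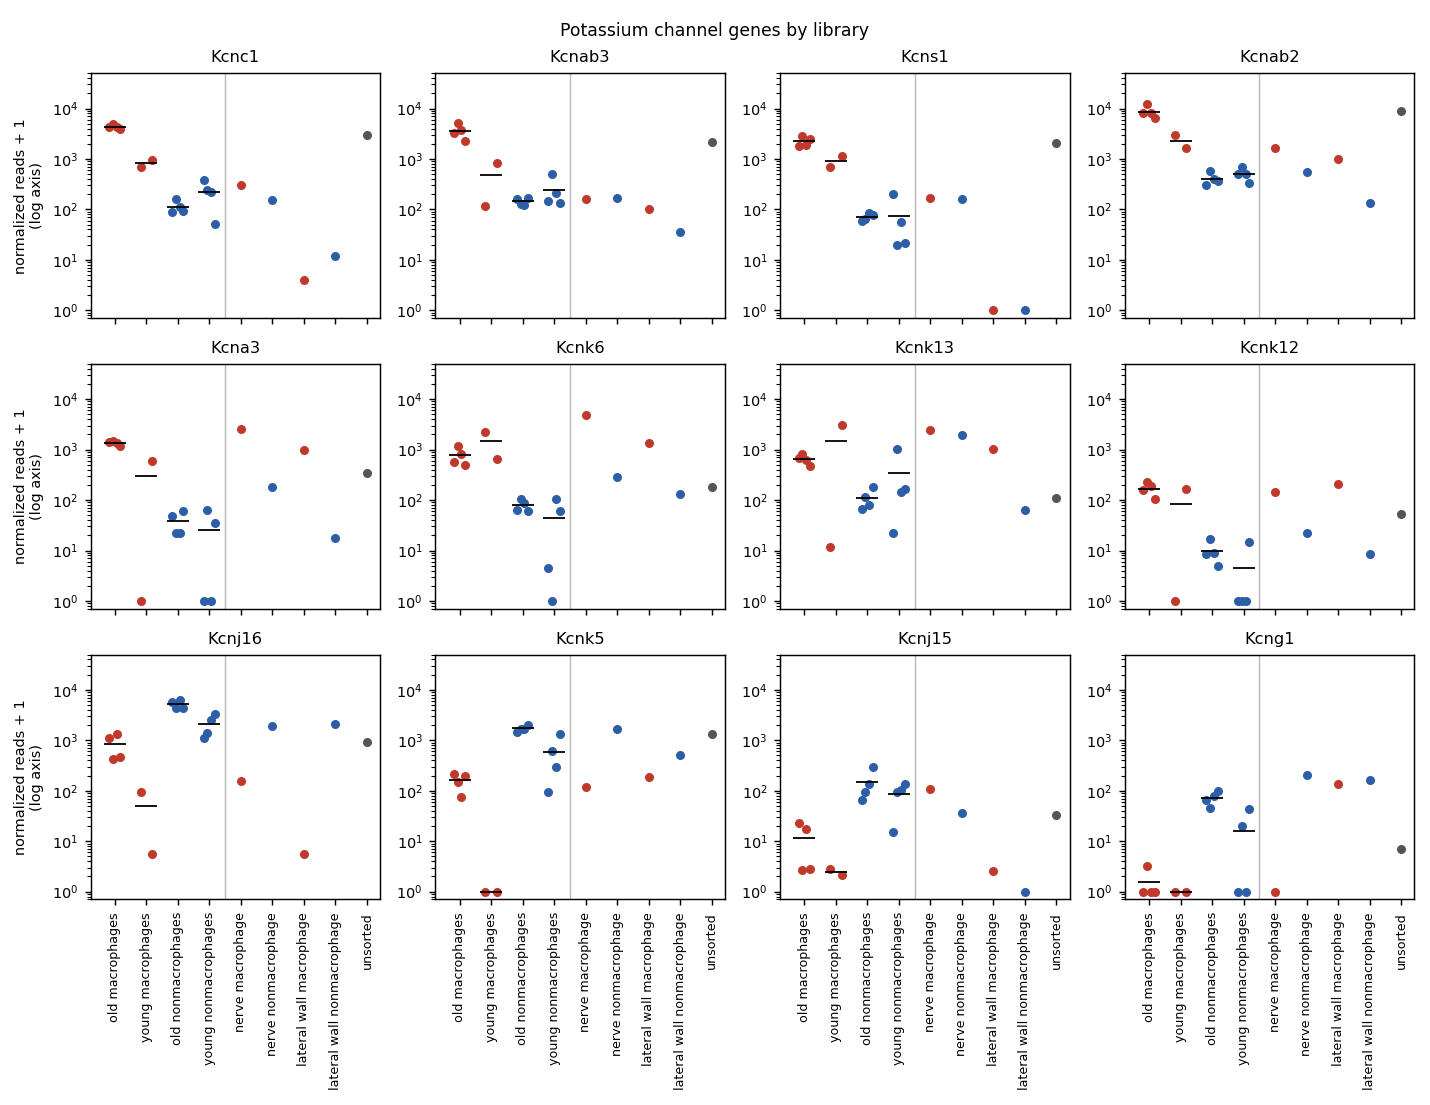
Normalized reads plus 1 on a log axis for 12 channel genes, each point 1 library, horizontal lines the mean of a whole-cochlea group, red points macrophage sorts, blue points nonmacrophage sorts and grey points the unsorted library. Kcnc1, Kcnab3, Kcns1 and Kcnab2 are high in old macrophages and in the unsorted library. Kcna3, Kcnk6, Kcnk12 and Kcnk13 stay high in the lateral wall macrophage library, and Kcnj16, Kcnk5, Kcnj15 and Kcng1 are higher in the old nonmacrophages.

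Genes known from macrophages and microglia were looked at by name. In the list of 9 such channels 1 was higher in old macrophages (Kcnab2), against 9.25% of all genes. In young macrophages 2 were higher (Kcnab2 and Kcnk6) and 1 lower (Kcnj2), against 9.18% and 22.3% of all genes. Kcna3 encodes Kv1.3, a channel of activated microglia, macrophages and T cells (chromosome 3, 107036169 to 107038070). It had 1415, 1448, 1344 and 1200.4 normalized reads in old macrophages, against 47.4, 21.3, 21.1 and 58.7 in old nonmacrophages, without overlap, and missed the threshold (log2 difference 5.29, SE 1.76, limma adjusted p = 0.054). Its 2 young macrophage libraries, at 0 and 594, enter the same estimate of spread. Kcnk6 averaged 764 ± 296 in old macrophages, against 78.1 ± 20.5 in old nonmacrophages (SD, n = 4 each). Kcnk13, which sets the resting voltage of microglia, averaged 645 ± 137 in old macrophages, against 110.0 ± 50.4 in old nonmacrophages (SD, n = 4 each). Both were without overlap and not past the test. Kcnn4 (KCa3.1), a calcium-activated channel of macrophages and red blood cells, had 420.1 to 927 in old macrophages, against 788 to 1696 in old nonmacrophages, with overlapping libraries. T and NK cell markers summed to 49 to 151 normalized reads in old macrophages and to 10909 and 2453 in the young ones, and their part in the Kcna3 values was not tested.

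The third comparison asked how the channel genes of sorted macrophages differed with age. Of the 82 members 29 were higher and 0 lower in old macrophages, against 24.1% of all genes higher and 5.57% lower (29.7% in either direction). At an unadjusted p under 0.05, 38 members were called in either direction, a count not made over all genes. edgeR called 16 higher and 0 lower, 19.5% of the members, where 20.4% of all genes were called. DESeq2 called 26 higher and 0 lower, 31.7% of the members, where 32.2% of all genes were called. The medians were 2.20 for members and 0.88 for all genes. With those at 0 set to their bound, the members' median was also 2.20. That value is over 70 members, with 12 left out because both groups were at or under the floor. Libraries did not overlap for 36 members that were higher and 2 that were lower, against 31.7% and 13.4% of all genes. With quantile normalization, which removes the shift of the median gene, 14 members were higher and 7 lower, 25.6% of the members, where 24.8% of all genes were called.

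Of the 29, 13 had no reads in both young macrophage libraries and 19 had none in at least 1. Kcna6 had 262, 561, 368 and 636 normalized reads in old macrophages, against 0 and 0 in young macrophages. It was at least 106-fold higher, and its call was kept in every left-out library and setting (limma adjusted p = 3.6e-07). Kcna10 (Kv1.8), a Kv1 channel best known from inner ear hair cells, had 348, 99, 337 and 181 in old macrophages, against 0 and 0 in young macrophages, at least 55.8-fold higher. Kcnk5 had 218, 149.6, 74.6 and 195 in old macrophages, against 0 and 0 in young macrophages, at least 36.8-fold higher. Every old library lay above both young ones for these 3 genes.

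Other members had reads at both ages. Kcnk2 had 3037, 3376, 3596 and 3437 normalized reads in old macrophages, against 716 and 18.1 in young macrophages (log2 difference 4.84, SE 0.95, limma adjusted p = 0.0024). Kcnj2 had 314, 355, 164 and 221 in old macrophages, against 3.51 and 20.3 in young macrophages (log2 difference 4.69, SE 0.77). Kcnab1 (Kvβ1), which gives Kv1 channels fast inactivation, had 1467, 705, 718 and 1083 in old macrophages, against 137 and 24.8 in young macrophages (log2 difference 3.99, SE 0.72). Every old library lay above both young ones for these genes. Kcnab1 overlaps exon sequence of a gene on the opposite strand. Kcnc1 and Kcnab2, whose values are given above, were higher in old macrophages by log2 differences of 2.42 (SE 0.66) and 1.91 (SE 0.38). The calcium- and sodium-activated Slo genes Kcnma1 (the BK pore) and Kcnt1 (Slack) also rose, with log2 differences of 5.53 and 6.79. Further calls were Kcna2, Kcna7, Kcnab3, Kcnc4, Kcnd2, Kcne2, Kcne3, Kcnh2, Kcnh4, Kcnip2, Kcnj3, Kcnj9, Kcnj16, Kcnk4, Kcnk9, Kcnk10, Kcnn1 and Kcnu1.

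The macrophage libraries of the young nerve and lateral wall, which the fit did not use, give another view of young macrophages. The 29 were called through the same old libraries, and the nerve and lateral wall libraries are shallower. Counts drawn from them are therefore no separate test, and were not made over all genes. For 21 of the 29 members every old macrophage library lay above both of these young libraries, and 9 had no reads in either. The exceptions include Kcna6, at 289 in the nerve macrophage library, and Kcnk5, at 117 in the nerve and 185 in the lateral wall macrophage library. For Kcnj2 the order was reversed, with 590 in the nerve and 446 in the lateral wall macrophage library, above every old macrophage library. Kcne3, at 106 in the nerve and 273 in the lateral wall macrophage library, was also above every old one. Kcnn1 stood at 28.1 in the nerve and 346 in the lateral wall macrophage library, the latter above every old one. Kcnab1 had no reads in the nerve macrophage library and 1430.5 in the lateral wall one, above all old ones except replicate 1. Of the 10 Schwann cell and oligodendrocyte markers 7 were higher in old than in young macrophages, and of the 7 T and NK cell markers 5 were lower. Of the other lists, 5 of 10 hair cell, 3 of 9 fibrocyte and matrix, 2 of 6 strial, 2 of 12 neuron and 1 of 6 bone markers were higher, and 4 of 8 endothelial, 2 of 7 pericyte and smooth muscle, 2 of 10 macrophage and 1 of 9 fibrocyte and matrix markers were lower. The part of these markers in the channel differences was not tested. Depth and age nearly coincided. Thinned to 20 M reads, the comparison called 27 members higher and 0 lower, 32.9% of the members, where 28.9% of all genes were called. Without old macrophage replicate 17 it called 19 higher, where 22.9% of all genes were called. With library quality weights it called 1 (Kcna6), where 1.96% of all genes were called.

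**Figure D4:**
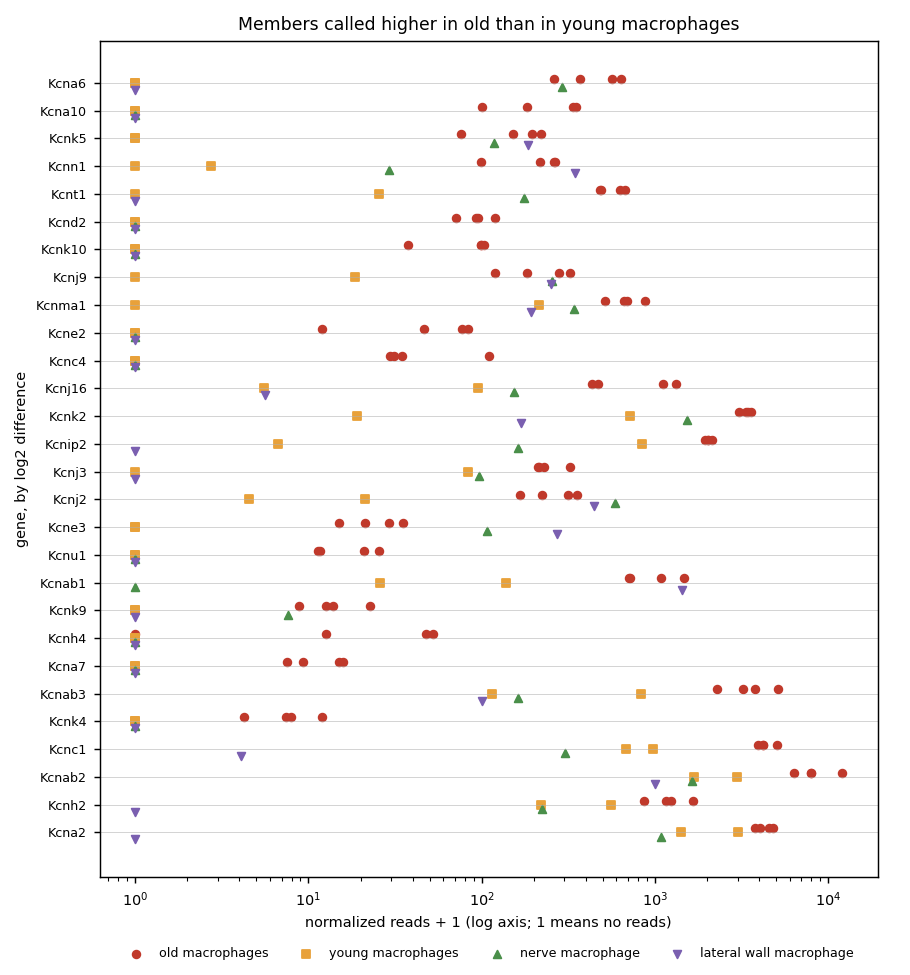
Normalized reads plus 1 (log axis; 1 means no reads) of 28 genes called higher in old than in young macrophages, ordered by log2 difference. Circles are the 4 old macrophage libraries, squares the 2 young ones, triangles the nerve and lateral wall macrophage libraries. The young squares lie left of the old circles in all rows except Kcnh4, and 13 genes have both squares at 1.

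Between old and young nonmacrophages 1 member was higher and 0 were lower by limma, against 1.64% and 0.0813% of all genes (1.72% in either direction). At an unadjusted p under 0.05, 15 were called, a count not made over all genes. edgeR called 0 in either direction, where 0.0163% of all genes were called. DESeq2 called 3 higher, 3.66% of the members, where 8.92% of all genes were called. The medians were 1.13 for members (1.05 over 76 with those at 0 at their bound) and 0.39 for all genes, and libraries did not overlap for 7 members that were higher and 0 that were lower, against 12.0% and 5.39% of all genes. The 1 call was Kcnh6 (ERG2), a slow voltage-gated channel, with 9.84, 31, 17.8 and 17.6 normalized reads in old nonmacrophages, against 0 in all 4 young ones. It was at least 4.78-fold higher. Quantile normalization, library quality weights and edgeR ended this call. Without young nonmacrophage replicate 14, the 1 deep young library, 9 members were higher and 1 lower, 12.2% of the members, where 19.4% of all genes were called. The levels of the abundant nonmacrophage channels had wide spreads: Kcna1 averaged 13637 ± 5553 in old and 18715 ± 9768 in young nonmacrophages, Kcnk2 2903 ± 1048 in old and 2973 ± 673 in young nonmacrophages, and Kcnj16 5187 ± 1017 in old and 2073 ± 1001 in young nonmacrophages (SD, n = 4 each), and none of these 3 passed.

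The sort difference itself was set against age with an interaction term, the old difference minus the young one. It was higher for 8 members and lower for 0, against 6.98% and 0.954% of all genes (7.94% in either direction). The largest was Kcna6, whose macrophage and nonmacrophage levels were 457 ± 172 and 703 ± 180.1 in the old cochlea (SD, n = 4 each) and 0 and 568 ± 177 in the young (SD, n = 4 for nonmacrophages). Its interaction was 8.44 (SE 0.75, limma adjusted p = 1.5e-05), a fitted size that depends on the pseudocount, since young macrophages had no reads. The same holds for Kcnk5 and Kcnk9. Kcnk5 (5.06), Kcnk2 (4.93) and Kcnj2 (4.88) followed, each with a deeper gap between macrophages and nonmacrophages in the young cochlea. For Kcnab3 (4.05), Kcnc1 (3.11) and Kcnab2 (2.23) macrophages stood further above nonmacrophages in the old cochlea. Kcnk9 (3.18) had no reads in either sort of the young cochlea, so its value is the old difference alone. Library quality weights left 0 of these calls, where 0.803% of all genes were called. Without young macrophage replicate 9 the count was 16, without replicate 15 it was 18, and without old nonmacrophage replicate 10 it was 5, where 13.6%, 29.1% and 6.07% of all genes were called.

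Single libraries from 2 parts of the young cochlea have no replicate check. Intervals here cover counting error only. In the lateral wall, 8 members were at least 4-fold higher and 22 at least 4-fold lower in the macrophage library, against 7.61% and 18.3% of all genes, counted on the log2(value + 1) scale. Kcna3 stood at 992 normalized reads in the macrophage and 16.8 in the nonmacrophage library, a ratio of 59.0 (95% exact interval 32.8 to 119). Kcnk13 stood at 1009 in the macrophage and 62.7 in the nonmacrophage library (ratio 16.1, 11.7 to 22.6), and Kcnk6 at 1360.0 in the macrophage and 128 in the nonmacrophage library (10.6, 8.46 to 13.4). Kcnab2 stood at 1006 in the macrophage and 132 in the nonmacrophage library (7.65, 6.10 to 9.69), and Kcne3, a small single-span subunit, at 273 in the macrophage and 19.9 in the nonmacrophage library (13.7, 7.82 to 26.3). Kcnk12, Kcng2 and Kcnj9 were the others. In the lateral wall macrophage library Kcnc1 was at 3.06, Kcnc2 at 1.53 and Kcnc4 at 0 normalized reads, and Kcns1, Kcnip1 and Kcnip2 had no reads. The neuron markers were also near 0 in that library, and their part was not tested. The lowest ratio with reads in both libraries was that of Kcnj16, with 4.59 in the macrophage and 2135 in the nonmacrophage library.

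In the auditory nerve 16 members were at least 4-fold higher and 27 at least 4-fold lower in the macrophage library, against 10.5% and 22.5% of all genes. Kcnk6 stood at 4799 normalized reads in the macrophage and 291 in the nonmacrophage library (ratio 16.5, 14.3 to 19.1), and Kcna3 at 2615 in the macrophage and 179 in the nonmacrophage library (14.6, 12.2 to 17.6). Kcnip3 stood at 4464 in the macrophage and 724 in the nonmacrophage library (6.16, 5.61 to 6.78), and Kcnn4 at 1500.1 in the macrophage and 281 in the nonmacrophage library (5.34, 4.58 to 6.25). Kcnip3 encodes KChIP3, a calcium-binding partner of Kv4 channels, and Kcnd1, a Kv4 pore, stood at 1566 in the macrophage and 164 in the nonmacrophage library (9.57, 7.89 to 11.7). Kcnk13 stood at 2445 in the macrophage and 1964 in the nonmacrophage library. Kcna1 stood at 862 in the macrophage and 10664 in the nonmacrophage library, and Kcna10, at 0 in the macrophage and 843 in the nonmacrophage library, was at least 170-fold lower.

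The unsorted young cochlea was set beside the 4 young nonmacrophage libraries, without a test. Of the members 37 were at least 4-fold higher and 1, Kcnq3, at least 4-fold lower than their mean, against 10.3% and 4.8% of all genes. The median log2 difference was 1.67 for members and 0.02 for all genes. In the unsorted library 46 members were higher than in all 4, a count not made over all genes. Kcnc2 stood at 4169.7 normalized reads in the unsorted library and at a mean of 98.3 ± 164 in young nonmacrophages (SD, n = 4). Kcnab2 stood at 9108 in the unsorted library and 507 ± 145 in young nonmacrophages, Kcnc1 at 2954 unsorted and 222 ± 134 in young nonmacrophages, and Kcns1 at 2055 unsorted and 73.2 ± 84.5 in young nonmacrophages. Its 12 neuron markers summed to 233556, against 6520 to 33815 in young nonmacrophages, and the part of the sort in these differences was not tested.

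Read by known role, the 30 channels of spiral ganglion neurons and the node held calls in both directions in both sorts. In old macrophages 7 were higher (among them Kcnc1, Kcnip4, Kcnj3, Kcnj9, Kcnk1 and Kcnk9) and 3 lower (Kcna4, Kcnh1 and Kcnj6), with a median of 0.19, against 9.25% higher, 9.36% lower and a median of -0.19 over all genes. In young macrophages 4 were higher and 6 lower, with a median of -0.79 (-0.29 over 26 with those at 0 at their bound), against 9.18%, 22.3% and -0.61 over all genes. In old over young macrophages 12 were higher and 0 lower, with a median of 2.17 (2.42 over 25 at their bound), against 24.1%, 5.57% and 0.88 over all genes. The counts of the shorter lists that follow have the same backgrounds. Of the axonal Kv1 genes, Kcna1 had 6698 to 10208 in old macrophages, against 7444 to 20572 in old nonmacrophages, and Kcna2 (Kv1.2) 3801 to 4819, against 2421 to 4799, with overlapping libraries for both. Of the 8 hair cell channels 1 was higher (Kcnh2) and 1 lower (Kcnmb4) in old macrophages, and 2 were lower in young macrophages. Of the 5 glial channels 1 was higher (Kcnk1) and 1 lower (Kcnj16) in old macrophages, and 3 were lower in young macrophages. Of the 9 vascular channels 1 was lower in old macrophages (Kcnj15) and 4 in young macrophages.

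Proteins that bind, anchor or organise these channels were followed as a list of 32 partner genes. In old macrophages 13 were higher and 4 lower, with a median of 0.89, against 9.25%, 9.36% and -0.19 over all genes. Dpp6, which binds Kv4 channels and speeds their gating, averaged 2014 in old macrophages and 64.4 in old nonmacrophages (log2 difference 5.00, SE 0.69). Lgi3, a secreted protein that holds Kv1 complexes on axons, averaged 4108 in old macrophages and 175 in old nonmacrophages (log2 difference 4.68, SE 0.78), and the LGI receptor gene Adam23 2565 in old macrophages and 212 in old nonmacrophages (3.57, SE 0.41). Abcc9, the sulfonylurea receptor of vascular Kir6.1 channels, was lower, at 271 in old macrophages and 1752 in old nonmacrophages (-2.79, SE 0.38), and so was the Schwann cell gene Lgi4, at 524 in old macrophages and 1980 in old nonmacrophages (-1.93, SE 0.34). In young macrophages 5 were higher and 7 lower, against 9.18% and 22.3% of all genes, and in old over young macrophages 10 were higher and 1 (Abcc9) lower, against 24.1% and 5.57%. Lgi1 averaged 521 in old macrophages and had no reads in young macrophages, and Dlg2, a scaffold of Kv1 channels, 719.7 in old macrophages with no reads in young macrophages. Abcc8, the sulfonylurea receptor that pairs with Kir6.2, was the 1 partner gene that was higher in old than in young nonmacrophages (27.2 in old and 0.94 in young, log2 difference 4.12, SE 0.68).

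Some calls lay close to the threshold. In the old sort Kcnk12 passed, with 157, 225, 188 and 102 normalized reads in old macrophages and 7.38, 15.8, 7.79 and 3.84 in old nonmacrophages (limma adjusted p = 0.045). In the young sort Kcnn1 (SK1) passed with a limma adjusted p = 0.048 and Kcna5 (Kv1.5) missed with 0.051. Between old and young macrophages Kcnh2 averaged 1229.9 in old and 385 in young macrophages and passed, while Kcnn2 (SK2), which overlaps an opposite-strand gene, averaged 492 in old and 126 in young macrophages and missed with a limma adjusted p = 0.052. Between old and young nonmacrophages Kcnj6 (GIRK2), with a mean of 10.4 in old and no reads in young nonmacrophages, missed with a limma adjusted p = 0.054.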

How the data were processed

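Cells of the mouse cochlea were sorted by GFP, and RNA of 19 libraries was sequenced. The deposited table holds 1 signal value per gene and library, which the authors made by dividing read counts by a library factor (normalized reads). Per the submitters' processing notes Partek, TopHat2 and DESeq2 were used with mm10, without versions, and the strand setting of counting is not given in the sources used here. Low-quality RNA was excluded and a subset of libraries sequenced a second time, per the labels' protocols. Values were whole multiples of 1 read's worth in 100.0% of values under 10000 reads, within 0.1 read, which gave the depth of each library and the recovered reads.

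Genes that reached a value of 1 in 2 or more of the 14 sorted whole-cochlea libraries (18441 of 18639) were tested with limma 3.58.1 (R 4.3.3; trend and robust) on log2(value + 1), with 4 group means and Benjamini-Hochberg adjustment at 0.05 over all of them. Fold changes are on this scale, which understates changes of low genes. The alternatives were edgeR 4.0.16 and DESeq2 1.42.0 on recovered reads, quantile normalization, library quality weights, other pseudocounts and filters, thinned reads and each library left out. edgeR with TMM factors called 2956 genes in the old sort, 4942 in the young sort, 3767 between old and young macrophages and 3 between old and young nonmacrophages. Intervals (95%, exact) and floors of 3 reads cover counting error only, since reads carry no molecular identifiers. Single libraries were compared without a test. Replicates are separate mice. Named members were those with an adjusted p under 0.05, groups that do not overlap and a mean of 20 or more where they were higher, the 10 highest per kilobase of exon in each whole-cochlea group, members of the role lists, and the member next to the threshold on either side. A few members counted here are not reported by name or drawn. Members and lists were chosen with earlier results of these data known. Gene positions and exon lengths are from GENCODE M21 and promoters from RefSeq, on GRCm38.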

Additional observations from a re-analysis of the deposited data

Results flagged for a closer look

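In 12 cases 1 library stood apart from the other 3 of its group by a gap test. Chance alone sets this test off in about 1 in 20 groups where values are normally distributed. It was run on unlogged values, and the number of groups tested was not counted. The 12 cases therefore cannot be set against that rate. In old macrophages replicate 17 was the highest for Kcnc4 (110 normalized reads), Kcnh7 (312), Kcnip4 (2359) and Kcnj3 (323) and the lowest for Kcnk10 (36.6), and replicate 7 was the highest for Kcnh5 (284). In old nonmacrophages replicate 18 was the highest for Kcnc4 (278) and the lowest for Kcnj2 (329), and replicate 11 was the highest for Kcnh8 (59.2). In young nonmacrophages replicate 6 was the highest for Kcna10 (1144), replicate 5 for Kcnh2 (400) and replicate 2 for Kcnh8 (153).

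By the interaction test of limma, the log2 difference of macrophages minus nonmacrophages was more positive in the old than in the young cochlea for 8 genes. For Kcna6 (8.44), Kcnk5 (5.06), Kcnk2 (4.93) and Kcnj2 (4.88) macrophages lay far below nonmacrophages in the young cochlea, and the gap was smaller or turned round in the old one. For Kcnab3 (4.05), Kcnc1 (3.11) and Kcnab2 (2.23) macrophages stood further above nonmacrophages in the old cochlea. Kcnk9 (3.18) had no reads in either sort of the young cochlea, and its size depends on the pseudocount. These rest on 2 young macrophage libraries.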

How the results depend on the processing

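No paired analysis was made. No replicate number is shared between groups, so the numbers do not show whether a macrophage and a nonmacrophage library came from the same mouse. The tests treat all libraries as independent. Percentages in parentheses are the shares of all genes called in either direction. In the old sort 16 members were higher and 10 lower (18.6%). With quantile normalization 28 were higher (25.9%), with library quality weights 37 and 25 (60.6%) and on the compared libraries alone 37 and 22 (58.3%). Lower counts were 5 with edgeR under TMM (16%) or DESeq2 size factors (16.1%) and 6 with DESeq2 (24.7%). Left-out libraries gave 9 to 24 higher and 5 to 12 lower (12.9% to 29.7%). In the young sort (7 and 15) quantile normalization gave 15 and 8 (28%) and quality weights 0 and 2 (3.12%). The compared libraries gave 1 and 4 (8.68%), DESeq2 12 and 24 (37.6%), and left-out libraries 7 to 14 and 12 to 16 (27.3% to 43.3%). Between old and young macrophages (29 and 0) quantile normalization gave 14 and 7 (24.8%) and quality weights 1 higher (1.96%). edgeR gave 16 with TMM (20.4%) and 15 with DESeq2 size factors (20.9%), and left-out libraries 19 to 31 and 0 to 1 (22.9% to 46.1%). Between old and young nonmacrophages (1 and 0) quantile normalization (0.483%), quality weights (1.03%) and edgeR under either scaling (0.0163%) gave 0 higher. No trend (1.81%) and the compared libraries (0.971%) gave 2. A pseudocount of 0.1 (1.77%) or 10 (1.7%) and DESeq2 (8.92%) gave 3. Leaving out both young macrophage libraries, an alternative chosen after seeing the data, gave 4 (5.77%). Left-out libraries gave 1 to 9 and 0 to 1 (0.906% to 19.4%). The interaction (8 and 0) gave 4 higher with quantile normalization (3.46%), 0 with quality weights (0.803%) and 19 higher and 1 lower with DESeq2 (16.1%). With left-out libraries it gave 5 to 18 and 0 to 1 (6.07% to 29.1%). Thinning to 20 M reads was also added after seeing the data. At 8-fold, 10 members were higher in the nerve macrophage library, 5 in the lateral wall one (14 at 2-fold) and 22 in the unsorted library. In the unsorted library lower members numbered 13 at 2-fold, 0 at 8-fold and 0 with a pseudocount of 10. At these other settings the single-library counts were not made over all genes. With quantile normalization the log2 difference of Kcnj15 in the young sort was 0.0503 and that of Kcnk4 between old and young macrophages -0.17, both reversed. The cause of these changes was not tested. With 25.4 and 35.1 M reads in the 2 young macrophage libraries, low members at 0 there may lie under the 3-read floor.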
